A study of Mus musculus with 3 samples.

Results

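Among CD8 T cells that carried surface PD-1 in mouse tumours, cells with a high count of the Tim-3 antibody tag were set against cells with a low count, separately in B16-Ova melanoma and in MC38-Ova colon carcinoma. A member cell had at least 500 genes, at most 10% mitochondrial UMIs (unique molecular identifiers, the counted molecules), a larger hashtag of at least 150 UMIs and at least 3 times the other, 2 or more UMIs of Cd8a and Cd8b1 together, no UMI of Cd4 or Foxp3, and at least 22 UMIs of the PD-1 tag. Of 19912 barcodes, 14992 passed the cell and hashtag filters, 4336 of these were CD8 cells by RNA, and 1736 of the CD8 cells were PD-1-positive. Cells with 28 or more Tim-3 tag UMIs, called Tim-3-high here, numbered 385 in B16-Ova and 443 in MC38-Ova. Cells with 20 or fewer, called Tim-3-low, numbered 171 and 254, and the 483 PD-1-positive cells between the thresholds belonged to neither group. The groups were thus chosen by counts of the PD-1 and Tim-3 tags, and levels of those tags describe the groups and are not results.

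Tumours grew subcutaneously in C57BL/6 mice and were harvested on day 14, per the labels. The growth protocol names MC38-Ova only, while the tumour type field and the design text name both tumours. Both tumour lines carry ovalbumin, a model antigen, and no antigen-free tumour belongs to the comparison. T cells were sorted as TCRβ+ CD3+ CD90.2+ CD11b-, stained with oligonucleotide-tagged antibodies and with biotinylated L-Pha (a plant lectin for branched N-glycans, read through an anti-biotin tag), and loaded in 1 10x Genomics capture. Hashtag 1 marked B16-Ova and hashtag 2 marked MC38-Ova. How many mice were pooled under a hashtag is not stated, so each tumour is 1 pool of cells, and the RNA and tag libraries share their cell barcodes. The p-values come from sums of these 2 pools, with a spread mostly or wholly borrowed across genes. They do not measure spread between mice.

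PD-1 (gene Pdcd1) is an inhibitory receptor that T cells put on their surface after antigen recognition and keep while antigen persists. Tim-3 (gene Havcr2) is a second inhibitory receptor, and in chronic infection and tumours its presence together with PD-1 marks differentiated, exhausted CD8 cells, whereas PD-1-positive cells without Tim-3 include progenitor-like cells that express the transcription factor TCF-1 (gene Tcf7). Galectin-9, Ceacam1, phosphatidylserine and Hmgb1 are known Tim-3 ligands.

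Every surface value in the comparison is a count of 1 of the following barcodes, which are shown because the split rests on telling them apart. Each is given 5′ to 3′, wholly in capitals because every base of a barcode is read.
Tim3: ATTGGCACTCAGATG
hash#1: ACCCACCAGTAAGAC
PD1: GAAAGTCAAAGCACT
hash#2: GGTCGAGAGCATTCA
Biotin: CGGTATATCAACAGA
Each barcode is 15 bases long. The Tim3 barcode differed from PD1 at 13 positions, from Biotin at 12, from hash#1 at 12 and from hash#2 at 11, counted base by base without a shift.

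The Tim-3 tag did not fall into separate peaks in PD-1-positive cells. Its median was 35 UMIs in Tim-3-high and 18 in Tim-3-low cells of B16-Ova, and 36 and 17 in MC38-Ova. Cells sat densely on both sides of each threshold: 22 B16-Ova and 35 MC38-Ova cells had exactly 20 Tim-3 UMIs, 26 and 37 had 21, 27 and 41 had 27, and 30 and 28 had 28. At the PD-1 threshold, 58 and 102 CD8 cells had 21 PD-1 UMIs and 50 and 91 had 22. Conventional CD4 cells (Cd4 detected, no Foxp3, Cd8a or Cd8b1) and PD-1-low CD8 cells both had a median of 18 Tim-3 UMIs in each pool, the level of the Tim-3-low group.

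**Figure D1:**
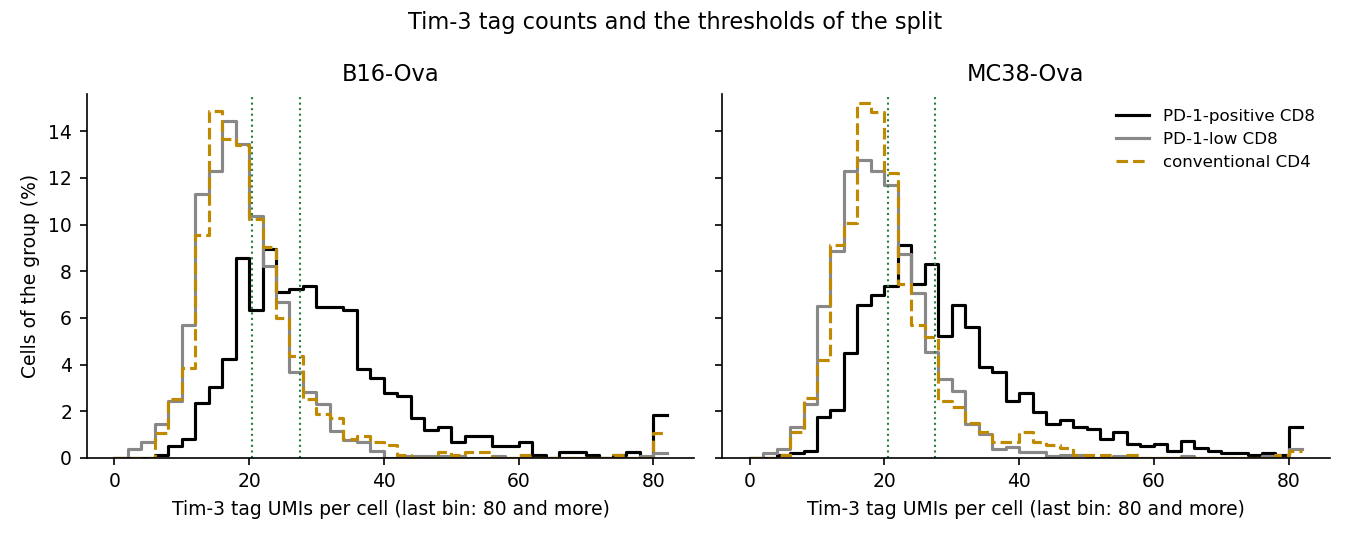
Share of cells (%) by Tim-3 tag UMIs per cell, for PD-1-positive CD8 cells, PD-1-low CD8 cells and conventional CD4 cells of each pool, with dotted lines at the thresholds of 20 and 28 UMIs and the last bin holding all higher counts. The PD-1-positive curve is a broad single hump shifted to the right of the other curves, whose medians are 18 UMIs.

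Tim-3-high cells made up 50.7% of PD-1-positive CD8 cells in B16-Ova (exact Clopper-Pearson 95% interval 47.1 to 54.3) and 45.3% in MC38-Ova (42.2 to 48.5). Tim-3-low cells made up 22.5% (19.6 to 25.7) and 26.0% (23.3 to 28.9). The intervals cover counting error only. Among PD-1-low CD8 cells the high threshold was passed by 8.91% of those in B16-Ova and 10.98% of those in MC38-Ova, and among conventional CD4 cells by 11.4% and 12.2%.

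Tim-3-high cells were also larger libraries. Their median RNA count was 11907 UMIs in B16-Ova and 9451 in MC38-Ova, against 8543 and 7275.5 in Tim-3-low cells. Median PD-1 tag counts were 33 and 32 against 27 and 26, median L-Pha counts 892 and 591 against 616 and 393, and median own-hashtag counts 588 and 652 against 439 and 456.5. Every tag and the RNA count were thus higher in Tim-3-high cells. To hold the RNA count equal, the comparison was repeated after drawing equal numbers of high and low cells from each decile of RNA UMIs of a pool (171 of each in B16-Ova, 250 of each in MC38-Ova). After this matching the median RNA counts were 8560 and 8543 UMIs in B16-Ova and 7198.5 and 7304.5 in the MC38-Ova pool, while the PD-1 tag still stood at 32 against 27 and 31 against 26.

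The choice of cells by Cd8a, Cd8b1, Cd4 and Foxp3 counts fixed their CD8 identity, so the levels of CD8 genes are a description. The 7 T cell and CD8 markers, Cd8a and Cd8b1 among them, together had 6380 CPM (a gene's UMIs divided by all RNA UMIs of the group and scaled to a common total) in Tim-3-high and 6439 in Tim-3-low cells of B16-Ova, and 6825 and 6952 in MC38-Ova. The B cell marker list summed to 32.3 CPM in Tim-3-high and 58.0 in Tim-3-low cells of B16-Ova, and to 67.0 and 94.0 in MC38-Ova, with Cd79a and Ms4a1 at 0 in all 4 sums. The summed RNA was 5225051 UMIs for Tim-3-high and 1741467 for Tim-3-low cells of B16-Ova, and 4809501 and 2010642 for MC38-Ova.

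Expression was tested on these 4 sums with edgeR, the pool as a block, at an adjusted p of 0.05. Of 9627 genes tested, 69 (0.717%) were higher and 55 (0.571%) lower in Tim-3-high cells, and 1033 had an unadjusted p under 0.05. With RNA-matched cells, 66 of 8716 (0.757%) were higher and 49 (0.562%) lower. The calls of both fits overlapped: 35 of the 69 higher genes and 29 of the 55 lower genes were also called after RNA matching. In 122 of the 124 genes called without matching, both pools moved the same way, beside 56.7% of all genes tested. The test itself favours genes whose pools agree, so this share is no separate evidence for the calls. DESeq2 called fewer, 15 higher and 9 lower with all cells, and matching on the PD-1 tag in place of RNA left 1 and 2, as described further on. Changes below are log2 of Tim-3-high over Tim-3-low, with the standard error of the fit.

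A few Tim-3-high cells held RNA of other lineages, and this touches 25 of the 69 higher genes. The macrophage markers summed to 97.0 CPM in Tim-3-high against 37.3 in Tim-3-low cells of B16-Ova and to 138 against 62.7 in MC38-Ova. The dendritic cell markers stood at 136 and 123 CPM, and at 531 and 92.5. The melanoma markers stood at 335 and 21.2 CPM in B16-Ova, and at 26.2 and 17.9 in MC38-Ova. Of these lists, 4 of 7 macrophage, 1 of 3 dendritic and 4 of 4 melanoma genes tested were higher. Cells with 6 or more UMIs of other-lineage markers numbered 6 of 385 Tim-3-high and 1 of 171 Tim-3-low cells in B16-Ova, and 20 of 443 and 2 of 254 in MC38-Ova. Pmel, a melanosome protein gene, shows how few cells carried this: 1 Tim-3-high cell of B16-Ova held 660 of the 692 Pmel UMIs of its group, and without that cell the level was 6.12 CPM in place of 132, near the 6.03 and 4.97 CPM of the MC38-Ova groups.

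Without these cells, 121 genes (1.27% of 9497) were higher and 111 (1.17%) lower, in a fit whose spread was borrowed wholly across genes, and 44 of the 69 and all 55 of the lower genes were called again. The 25 others included genes of antigen-presenting, myeloid and melanoma cells. The MHC class II genes H2-Aa and H2-Eb1 went from log2 changes of 3.46 and 3.56 to 0.40 and -0.30, the tetraspanin gene Cd63 from 2.99 to 0.47 and Pmel from 3.64 to 0.32, none of them then passing. RNA matching did not remove the class II signal, with H2-Aa at 3.34. In 24 of the 69 genes, over 50% of the UMIs lay in the other-lineage cells. Of these, 9 were among the markers that chose the cells, Pmel included, so that their share there and their loss without the cells were fixed by the choice. The 15 others were not, among them H2-Aa with 91.3%, Arg1 with 88.8% and Cd63 with 79.7%. Havcr2 had 1.49% of its UMIs there, Gzmb 3.97% and Prf1 4.26%. Cells with over 100 Tim-3 tag UMIs, 10 in each Tim-3-high group, were a further set apart. Without them 139 genes were higher and 103 lower.

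**Figure D2:**
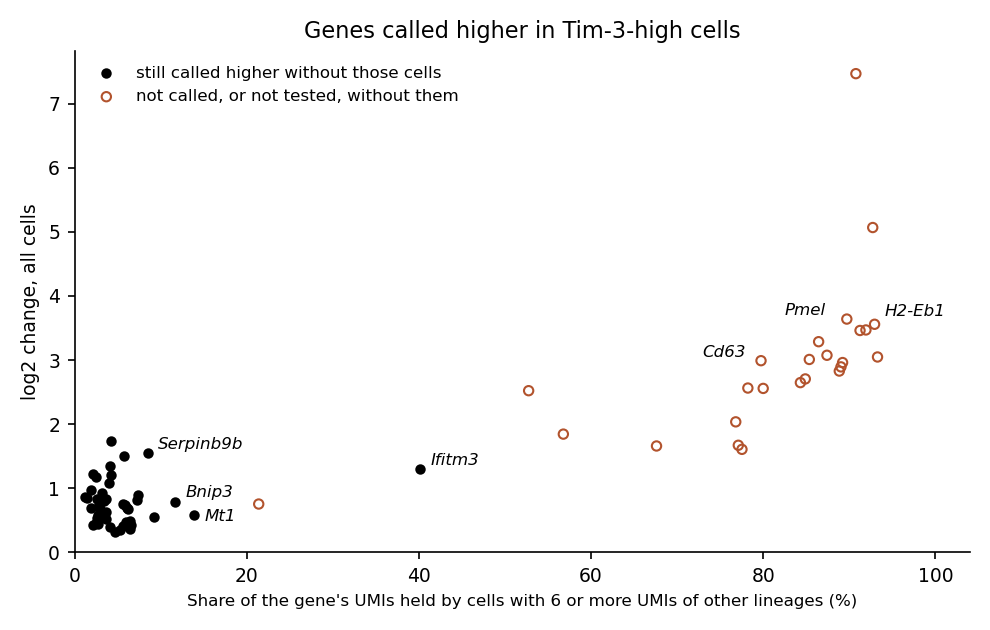
Genes higher in Tim-3-high cells, each a point, with the share of its UMIs in cells that hold 6 or more UMIs of other-lineage markers (x, %) and its log2 change with all cells (y). Filled points, 44 genes, were called again without those cells. The 25 open points were not, and 24 of these have over 50% of their UMIs in those cells.

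Havcr2 RNA followed the surface count of its protein. Havcr2 (chromosome 11, 46454935 to 46481255, plus strand, GRCm38) stood at 178 CPM in Tim-3-high and 106 in Tim-3-low cells of B16-Ova, and at 212 and 108 in MC38-Ova. The CPM ratio was 1.68 in B16-Ova (exact conditional 95% interval 1.44 to 1.98) and 1.97 in the MC38-Ova pool (1.70 to 2.29). The log2 change was 0.85 ± 0.11 (adjusted p = 0.00119), or 0.98 ± 0.12 after RNA matching (adjusted p = 1.77e-12). Cells were also thinned to 3000 UMIs each, which left out shallower cells: 26 Tim-3-high and 9 Tim-3-low cells of B16-Ova, 28 and 25 of MC38-Ova, and 216 and 196 conventional CD4 cells, of which 537 and 540 were kept. Among the cells kept, a Havcr2 UMI was found in 36.5% of Tim-3-high and 22.2% of Tim-3-low cells of B16-Ova, and in 35.9% and 22.7% in MC38-Ova. The same shares in conventional CD4 cells were 5.40% and 9.07%. Without thinning, the shares were 71.2% and 42.7% in B16-Ova at median depths of 11907 and 8543 UMIs, and 64.3% and 35.04% in MC38-Ova at 9451 and 7275.5 UMIs, beside 11.4% and 14.0% in conventional CD4 cells at 4107 and 4528 UMIs. The thinned shares of Tim-3-low cells were above those of conventional CD4 cells in both pools, so Havcr2 RNA was present in cells with a low tag.

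Pdcd1 RNA did not follow the Tim-3 tag. Pdcd1 stood at 524 and 536 CPM in B16-Ova and at 480 and 445 in the MC38-Ova pool, with ratios of 0.979 (0.908 to 1.06) and 1.08 (0.999 to 1.17). Its log2 change was 0.02 ± 0.08 (adjusted p = 0.949) and 0.00 ± 0.10 after RNA matching. The PD-1 tag, in contrast, had the higher medians given above in Tim-3-high cells.

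The granzyme and cytotoxic granule list had the largest share of genes higher of the 19 lists: 8 of 15 tested were higher and 1, the cathepsin gene Ctsw, was lower, with a median log2 change of 0.46 against -0.01 for all genes. After RNA matching 7 were higher and 1 lower, with a median of 0.35. Prf1 encodes perforin, which opens the target cell's membrane. It stood at 719 CPM in Tim-3-high and 358 in Tim-3-low cells of B16-Ova, and at 432 and 153 in MC38-Ova. Its ratios were 2.01 (1.84 to 2.19) and 2.83 (2.51 to 3.20), and its log2 change was 1.21 ± 0.11 (adjusted p = 0.000136), or 1.13 ± 0.11 after RNA matching (adjusted p = 5.5e-23). Prf1 UMIs were spread over many cells, 284 and 281 of the Tim-3-high cells in the pools, and no cell held over 9.12% of a group's UMIs.

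Gzmb encodes granzyme B, the protease that triggers death of the target cell. It stood at 1927 against 1127 CPM in B16-Ova and 4193 against 1587 in the MC38-Ova pool. The log2 change was 1.08 ± 0.12 (adjusted p = 0.000351), or 0.90 ± 0.09 after RNA matching (adjusted p = 2.88e-18). The ratio was 1.71 (1.63 to 1.80) in B16-Ova and 2.64 (2.55 to 2.74) in MC38-Ova, and a difference between the tumours could not be tested with 1 pool of each. Thinned to 3000 UMIs, 84.1% and 57.4% of Tim-3-high and Tim-3-low cells of B16-Ova had a Gzmb UMI, and 80.96% and 72.1% in MC38-Ova, against 47.9% and 48.5% of conventional CD4 cells. The interval of the B16-Ova Tim-3-low share (49.4 to 65.1) overlapped that of conventional CD4 cells (43.6 to 52.2). For Prf1 these shares were 57.4% and 33.3%, then 43.4% and 23.6%, against 6.70% and 4.26%.

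Gzmc, Gzmd, Gzme and Gzmf are neighbouring granzyme genes on chromosome 14 between 56117626 and 56234656 (GRCm38) and are close copies of one another, so their separate values are uncertain where reads could be split. Gzmc stood at 405 against 151 CPM in B16-Ova and 189 against 59.7 in the MC38-Ova pool (log2 change 1.503 ± 0.10, adjusted p = 2.54e-05; RNA-matched 1.21 ± 0.12, adjusted p = 3.11e-19). These genes were made by few cells. Gzmc UMIs came from 99 and 88 Tim-3-high cells and from 17 and 23 Tim-3-low cells, and 1 Tim-3-low cell of MC38-Ova held 55.0% of its group's count. Gzme had 20 UMIs in the Tim-3-low cells of MC38-Ova, of which 19 lay in 1 cell, and a log2 change of 1.35 ± 0.22 (adjusted p = 0.00807).

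Gzmf and Serpinb9b depended on which cells were drawn. Gzmf stood at 534 and 329 CPM in B16-Ova and at 108 and 48.7 in the MC38-Ova pool, a log2 change of 0.83 ± 0.11 (adjusted p = 0.00227). After RNA matching its levels in B16-Ova were 326 and 329 CPM, and the log2 change of 0.54 ± 0.12 (adjusted p = 0.00116) came from MC38-Ova, at 137 against 48.9 CPM. With each gene's highest cell left out of each matched sum, Gzmf was at 0.23 (adjusted p = 0.9). Serpinb9b, of the granzyme-inhibiting serpin family, was at 98.2 against 46.5 CPM in B16-Ova and 56.1 against 8.46 in the MC38-Ova pool (log2 change 1.55 ± 0.24, adjusted p = 0.00588), but at -0.67 ± 0.27 after RNA matching (adjusted p = 0.311). It was the 1 gene of the 69 whose sign turned under matching. Serpinb9, whose product inhibits granzyme B, had 0.45 ± 0.09 (adjusted p = 0.0238), or 0.35 ± 0.11 after matching (adjusted p = 0.0976).

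Of 22 inhibitory receptor and exhaustion genes tested, 4 were higher and none lower, with a median of 0.10. After RNA matching 5 were higher. Lag3, an inhibitory receptor that binds MHC class II, stood at 536 against 447 CPM in B16-Ova and 807 against 500 in the MC38-Ova pool (0.47 ± 0.10, adjusted p = 0.0403; RNA-matched 0.58 ± 0.10, adjusted p = 1.78e-06). Entpd1, which encodes the ectonucleotidase CD39, stood at 75.4 against 48.8 and 55.1 against 31.8 CPM (0.68 ± 0.13, adjusted p = 0.0231; RNA-matched 0.93 ± 0.17, adjusted p = 6.6e-06). Both genes were higher in each pool, and the pools moved the same way in 56.7% of all genes tested. Tnfrsf9, the costimulatory receptor 4-1BB, had 0.58 ± 0.10 (adjusted p = 0.0119). Rgs16, a regulator of G-protein signalling, did not pass with all cells, but passed after RNA matching at 0.56 ± 0.11 (adjusted p = 0.000129) and without other-lineage cells at 0.46 ± 0.10 (adjusted p = 0.000224). Tigit had 0.20 ± 0.10 (adjusted p = 0.47).

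Tox, a transcription factor of the exhaustion programme, had pool ratios on opposite sides of 1 with all cells. It stood at 190 against 155 CPM in B16-Ova, a ratio of 1.22 (1.07 to 1.40), and at 50.9 against 71.1 in MC38-Ova, a ratio of 0.716 (0.580 to 0.887). After RNA matching the MC38-Ova interval (0.609 to 1.01) spanned 1. None of the 9 tested genes for Tim-3 ligands and signalling partners passed, with a median of -0.07. Lgals9, which encodes galectin-9, had -0.19 ± 0.10 (adjusted p = 0.537), Hmgb1 had -0.01 ± 0.08, and Fcer1g 0.43 ± 0.11 (adjusted p = 0.0795).

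**Figure D3:**
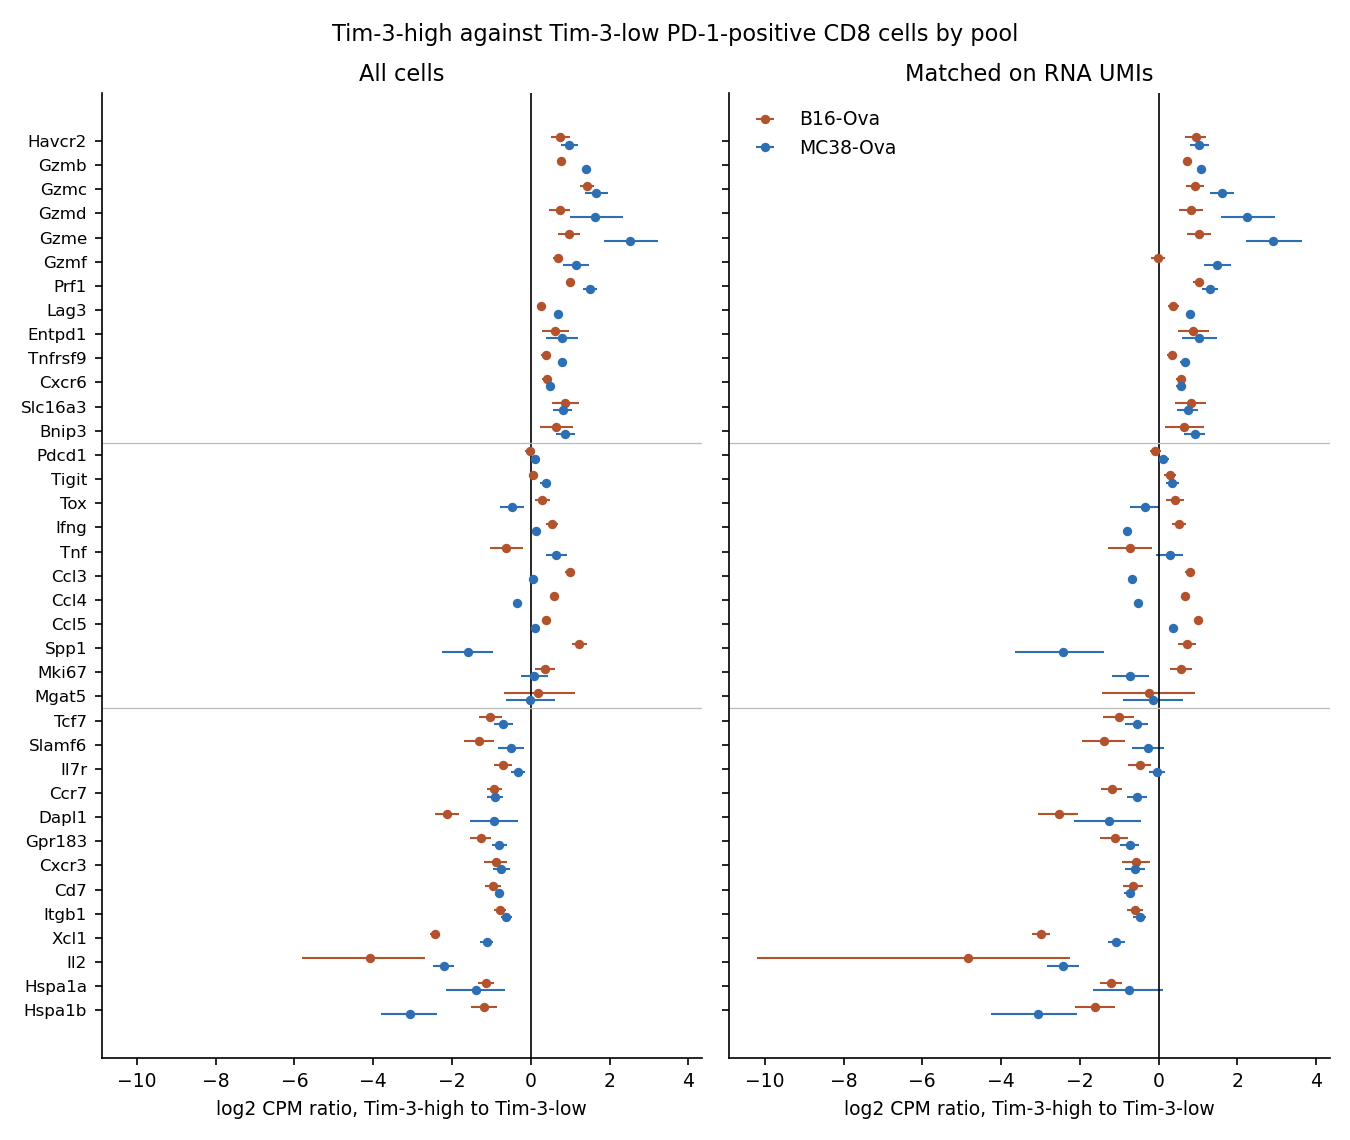
log2 ratio of CPM in Tim-3-high over Tim-3-low cells for named genes, in B16-Ova and MC38-Ova, with all cells and with RNA-matched cells, and bars for the exact 95% intervals, which cover counting error only. Prf1, Gzmb, Gzmc and Havcr2 lie right of 0 in both pools and both versions. Tcf7, Slamf6, Ccr7 and Xcl1 lie left of 0, with the RNA-matched MC38-Ova bar of Slamf6 crossing 0. Pdcd1 lies near 0.

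The progenitor and memory-like list was the group with most genes lower: 9 of 18 tested were lower and none higher, with a median of -0.58, and after RNA matching 5 were lower, with a median of -0.51. Tcf7 (chromosome 11, 52252371 to 52283014, minus strand, GRCm38) encodes TCF-1, the transcription factor of self-renewing T cells. It stood at 45.4 CPM in Tim-3-high and 92.5 in Tim-3-low cells of B16-Ova, and at 73.8 and 120 in MC38-Ova. The log2 change was -0.86 ± 0.12 (adjusted p = 0.00287), or -0.76 ± 0.15 after RNA matching (adjusted p = 3.64e-05). With cells matched on the PD-1 tag as well as RNA, it was -0.43 and not called (adjusted p = 0.32). Among cells thinned to 3000 UMIs, 14.2% of Tim-3-high and 22.2% of Tim-3-low cells of B16-Ova had a Tcf7 UMI, and 19.5% and 23.6% in MC38-Ova, with overlapping intervals in both pools. Unthinned, these shares were 28.8% and 39.2%, then 37.5% and 41.3%. In conventional CD4 cells the thinned Tcf7 shares were 34.8% and 26.5%.

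Slamf6, the Ly108 receptor of progenitor-like CD8 cells, stood at 24.1 against 60.3 CPM in B16-Ova and 43.0 against 60.7 in the MC38-Ova pool (-0.88 ± 0.18, adjusted p = 0.028; RNA-matched -0.74 ± 0.17, adjusted p = 0.00288). Ccr7, the receptor that guides T cells into lymph nodes, stood at 107 against 203 and 85.9 against 161 CPM (-0.93 ± 0.10, adjusted p = 0.000309; RNA-matched -0.87 ± 0.13, adjusted p = 2.53e-09). Both were lower in Tim-3-high cells of each pool, but the RNA-matched interval of the Slamf6 ratio in MC38-Ova (0.631 to 1.09) spanned 1. Il7r, the receptor of the survival cytokine interleukin-7, had -0.51 ± 0.11 (adjusted p = 0.0464), and -0.24 ± 0.12 after RNA matching (adjusted p = 0.638). Lef1, a factor related to TCF-1, had -0.36 ± 0.12 (adjusted p = 0.253).

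Dapl1 and Xcl1 had the largest changes of the list. Dapl1 levels were 29.9 against 130 CPM in B16-Ova and 11.2 against 21.4 in the MC38-Ova pool, a log2 change of -1.82 ± 0.21 (adjusted p = 0.000606). Xcl1 encodes a chemokine that attracts cross-presenting dendritic cells and is also used as a marker of progenitor-like exhausted cells. It stood at 147 against 791 CPM in B16-Ova and at 130 against 283 in the MC38-Ova pool, with ratios of 0.186 (0.170 to 0.203) and 0.460 (0.410 to 0.516). The log2 change was -1.83 ± 0.21 (adjusted p = 0.000606), or -2.04 ± 0.12 after RNA matching (adjusted p = 5.9e-63). A single Tim-3-low cell of B16-Ova held 421 of the 1377 Xcl1 UMIs there. Without the highest cell of each sum the levels were 124 against 549 and 122 against 249 CPM, and the matched log2 change was -2.21 (adjusted p = 6.3e-07). The share of cells with an Xcl1 UMI after thinning was 11.98% against 23.5% in B16-Ova, but 16.1% against 18.8% for MC38-Ova, with overlapping intervals there. Unthinned, it was 21.8% against 30.4% and, for MC38-Ova, 31.4% against 26.8%, the opposite order. Conventional CD4 cells had thinned Xcl1 shares of 9.31% and 8.70%.

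Other receptors and adhesion genes were lower as well. Of 11 chemokine receptor and egress genes, 4 were lower, namely Ccr7, Gpr183, Cxcr3 and S1pr1, and 1 was higher. Gpr183, an oxysterol receptor that positions lymphocytes in lymphoid tissue, had -1.01 ± 0.12 (adjusted p = 0.00116), and Cxcr3, the receptor of interferon-induced chemokines, -0.82 ± 0.11 (adjusted p = 0.00179). Cxcr6, a receptor of tissue-resident T cells, was the gene that was higher, at 603 against 457 and 650 against 464 CPM (0.43 ± 0.08, adjusted p = 0.0156; RNA-matched 0.55 ± 0.10, adjusted p = 1.22e-05). Of 11 integrin and residency genes, Itgb1 (-0.71 ± 0.09, adjusted p = 0.00131), Itgb7 and Cd69 were lower. After RNA matching Itgb7 (adjusted p = 0.121) and S1pr1 (adjusted p = 0.0655) no longer passed. Cd7 stood at 107 against 207 and 270 against 470 CPM (-0.88 ± 0.09, adjusted p = 0.000309). Of 11 TNF receptor costimulators and related genes, Crtam (-0.78 ± 0.14) and Cd40lg (-1.24 ± 0.22) were lower and Tnfrsf9 higher. Cd40lg, the ligand of CD40, is a helper T cell gene, and its levels were 8.42 against 29.9 CPM in B16-Ova and 25.4 against 46.8 in the MC38-Ova pool.

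**Figure D4:**
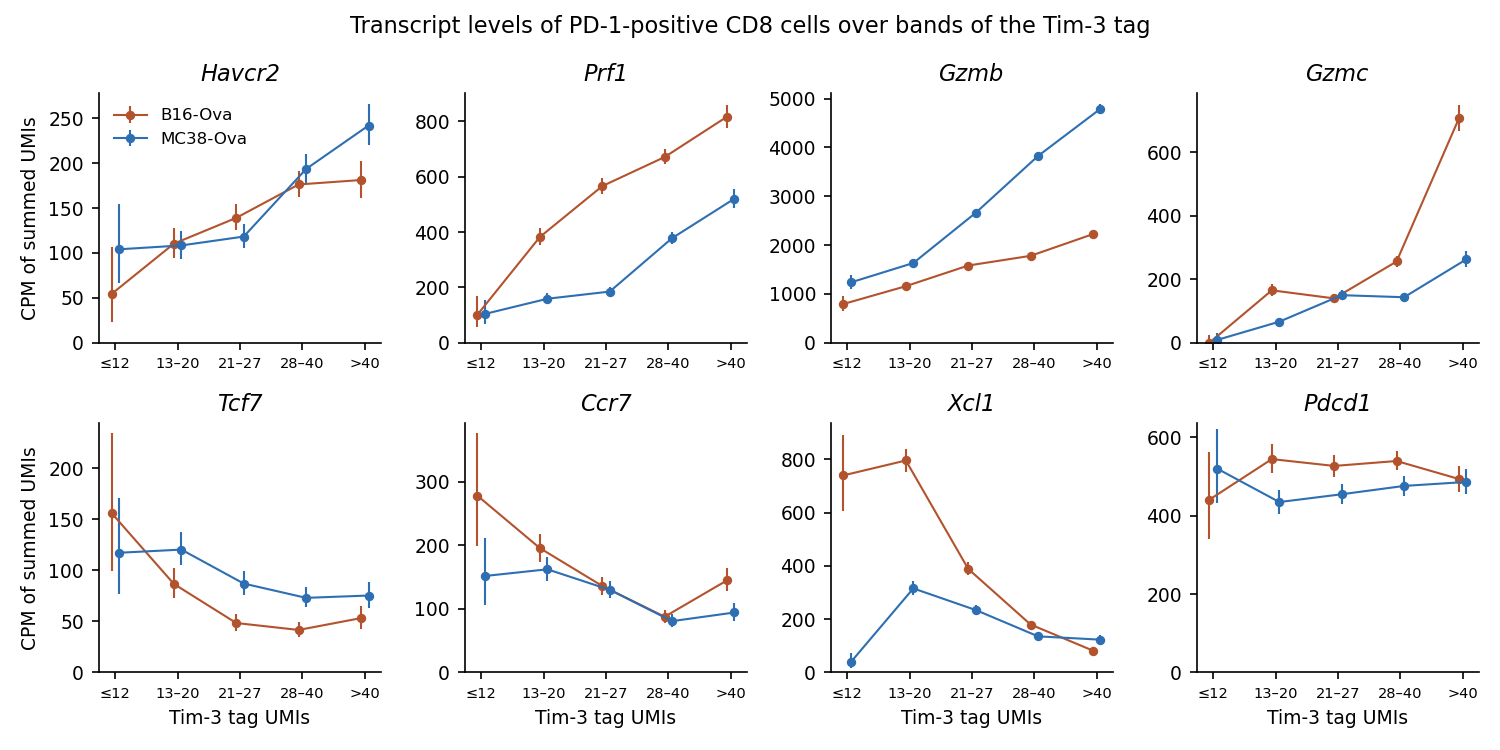
CPM of 8 genes (y) over bands of Tim-3 tag UMIs (x) in PD-1-positive CD8 cells of each pool, with exact Poisson 95% intervals that cover counting error only. Prf1 and Gzmb are higher in each successive band, Tcf7 and Ccr7 are higher in the bands up to 20 UMIs than in those from 28, and Pdcd1 stays between 435 and 545 CPM.

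The cells between the thresholds had levels between those of the groups for Prf1, Gzmb, Tcf7, Xcl1 and Dapl1 in both pools, but not for Gzmc in B16-Ova, at 139.5 CPM there. Over bands of at most 12, 13 to 20, 21 to 27, 28 to 40 and over 40 Tim-3 UMIs, Prf1 went from 102 to 382, 566, 671 and 816 CPM in B16-Ova and from 104.1 to 159, 185, 378 and 520.5 in MC38-Ova. Gzmb went from 794 to 2224 CPM and from 1236 to 4790 over the same bands. Both were higher at every step in both pools, with overlapping intervals between neighbouring bands up to 27 UMIs for Prf1 in MC38-Ova. Tcf7 went from 156 CPM in the lowest band to 86.6, 48.3, 41.5 and 53.1 in B16-Ova, and from 117 to 120, 86.9, 73.0 and 75.2 in MC38-Ova. The lowest band held 19 and 32 cells. Xcl1 in that band was 740 CPM in B16-Ova but 39.0 in MC38-Ova, so its order over bands differed at the lowest band.

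Glycolysis and hypoxia genes were higher in 8 of 20 tested and lower in none, with a median of 0.30. After RNA matching 5 were higher, with a median of 0.22. Slc16a3, the lactate exporter MCT4, stood at 89.4 against 48.8 CPM in B16-Ova and 154 against 88.0 in the MC38-Ova pool (0.82 ± 0.11, adjusted p = 0.00211; RNA-matched 0.76 ± 0.14, adjusted p = 2.02e-05). Bnip3, a hypoxia-induced mitophagy gene, had 0.79 ± 0.12 (adjusted p = 0.00588), and the glycolytic enzyme gene Pgk1 0.49 ± 0.07 (adjusted p = 0.00538). Ldha and Gapdh passed before matching but not after, at 0.22 ± 0.09 and 0.26 ± 0.09. None of 17 oxidative phosphorylation genes passed, with a median of 0.07. Of the 4 metallothionein-list genes, Mt1 was higher (0.58 ± 0.13, adjusted p = 0.0421).

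Of the division genes, none of 18 S phase genes and 1 of 20 genes of G2 and mitosis was higher, beside 0.717% of all genes tested. The medians of the 2 lists were 0.23 and 0.31, against -0.01 for all genes. The 1 gene called, Ube2c, went from 0.75 ± 0.13 (adjusted p = 0.0119) to 0.31 ± 0.16 after RNA matching (adjusted p = 0.629). Without other-lineage cells the S phase gene Pclaf was higher, at 0.34 ± 0.10 (adjusted p = 0.0379), as were Ube2c, Cenpf and Top2a of G2 and mitosis. Mki67 stood at 125 against 97.6 and 54.9 against 51.7 CPM (0.23 ± 0.12, adjusted p = 0.532), and at 144 against 97.6 and 31.3 against 51.4 after RNA matching. The median of the S phase list after RNA matching was 0.32 for B16-Ova and -0.43 for MC38-Ova. Of 20 T cell receptor signal reporters, Irf8 and Tnfrsf9 were higher and Cd69 lower, of which Irf8 did not pass after RNA matching (adjusted p = 0.104). Nr4a1 had -0.18 ± 0.08 (adjusted p = 0.47). Of 16 interferon-stimulated genes, Ifit3 (-0.89 ± 0.14, adjusted p = 0.00612) and Irf7 were lower, and neither passed after RNA matching. Of 16 AP-1 and dissociation stress genes, Hspa1a, Hspa1b and Fos were lower. After RNA matching Fos was not called (-0.24 ± 0.11, adjusted p = 0.458), and Maf was higher (0.79 ± 0.23, adjusted p = 0.0487). Hspa1a and Hspa1b are near-identical heat-shock genes and cannot be told apart reliably, and 1 Tim-3-low cell of MC38-Ova held 82.5% of its group's Hspa1b UMIs.

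The pool ratios of Tnf, Ccl4 and Spp1 lay on opposite sides of 1 with all cells. Of 14 cytokine and chemokine genes tested, Ccl9 was higher and Il2 and Xcl1 lower. Ccl9, a chemokine gene, was not called after RNA matching (0.89 ± 0.38, adjusted p = 0.414), with 2.98 against 5.99 CPM in the MC38-Ova pool, and 1 Tim-3-high cell of that pool held 57.4% of its group's Ccl9 UMIs before matching. Ifng stood at 339 against 233 CPM in B16-Ova and 790 against 722 in the MC38-Ova pool (0.30 ± 0.09, adjusted p = 0.201), and Ccl3 at 988 against 499 and 878 against 843 (0.49 ± 0.14, adjusted p = 0.163). After RNA matching the MC38-Ova direction of both turned: Ifng was at 418 against 724 CPM, a ratio of 0.578 (0.531 to 0.630), and Ccl3 at 534 against 847, a ratio of 0.631 (0.584 to 0.681), while both ratios stayed above 1 in B16-Ova. A few cells held much of these counts in MC38-Ova. Before matching, 1 Tim-3-high cell held 912 of 3801 Ifng UMIs, above the 842 of the whole matched sum, so it was not drawn. Another single-cell maximum was 562 of 4223 Ccl3 UMIs. In Tim-3-low cells, 1 cell held 359 of 1452 Ifng UMIs and 1 held 328 of 1695 Ccl3 UMIs. Without other-lineage cells both were higher, Ifng at 0.35 (adjusted p = 0.00466) and Ccl3 at 0.48 (adjusted p = 1.52e-06). Ccl5 stood at 7533 against 5785 and 4441 against 4132 CPM, with 0.23 ± 0.07 (adjusted p = 0.205), and passed after RNA matching at 0.67 ± 0.09 (adjusted p = 1.22e-09). Gzma, a granzyme of effector-memory cells, stood at 70.6 against 90.7 CPM in B16-Ova and 267 against 120 in the MC38-Ova pool. Spp1, which encodes osteopontin, stood at 325 against 138 CPM in B16-Ova and at 7.90 against 23.9 in the MC38-Ova pool, where 3 Tim-3-low cells carried it.

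The lower Il2 of Tim-3-high cells rested on single cells. Il2, the growth factor of T cells, stood at 0.957 against 16.1 CPM in B16-Ova and 34.7 against 161 in the MC38-Ova pool, a log2 change of -2.37 ± 0.20 (adjusted p = 9.46e-05). A single Tim-3-low cell held 25 of 28 Il2 UMIs in B16-Ova, and 1 held 231 of 324 in MC38-Ova. Without the highest cell of each sum the levels were 0.766 against 1.72 and 22.2 against 46.3 CPM, and the matched log2 change went from -2.55 to -1.27 (adjusted p = 0.045). With thresholds of 35 and 15 UMIs it was 1.04 (adjusted p = 0.4).

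The lectin and its enzymes can be read in the same cells. L-Pha counts were higher in Tim-3-high cells before matching, and stayed higher after RNA matching, with medians of 759 against 616 UMIs for B16-Ova and 529.5 against 398.5 for the MC38-Ova pool. The own hashtag also stayed higher after RNA matching, at 547 against 439 UMIs for B16-Ova and 580.5 against 462 for the MC38-Ova pool. Whether the L-Pha difference exceeded that of the hashtag was not tested. None of the 16 N-glycan branching and sialylation genes tested passed, with a median of -0.07. Mgat5, the enzyme that makes the β1,6 branch which L-Pha binds, stood at 9.76 against 8.61 and 16.2 against 16.4 CPM (0.05 ± 0.25, adjusted p = 0.974), so a difference was not detectable at this depth.

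Holding the PD-1 tag equal in place of RNA removed most calls. With 157 high and 157 low cells in B16-Ova and 204 and 204 in the MC38-Ova pool drawn equally from PD-1 deciles, 1 gene was higher and 2 lower, namely Gzmf (1.03, adjusted p = 0.027), Il2 (-3.08, adjusted p = 0.00078) and Ccr7 (adjusted p = 0.031). The PD-1-matched fit had fewer total degrees of freedom than that with all cells (8.71 against 12.9), while the RNA-matched fit borrowed its spread wholly across genes. Havcr2, Prf1 and Gzmb did not pass: Havcr2 had 0.88 (adjusted p = 0.08), Prf1 1.28 (adjusted p = 0.08) and Gzmb 1.06 (adjusted p = 0.12). Their RNA-matched log2 changes were 0.98, 1.13 and 0.90. Whether the PD-1 level or the estimated spread lies behind the fewer calls was not tested. With RNA and PD-1 matched together, 19 genes were higher and 11 lower. Havcr2 then had 0.97 (adjusted p = 0.00014), Prf1 1.14 (adjusted p = 1.9e-05), Gzmb 0.90 (adjusted p = 3.8e-05), Lag3 0.52 (adjusted p = 0.0048) and Ccr7 -0.81 (adjusted p = 0.0052), while Gzmc had 0.67 (adjusted p = 0.19). Tcf7 was not called under either, at -0.49 (adjusted p = 0.46) and -0.43 (adjusted p = 0.32), and neither was Slamf6, at -0.81 (adjusted p = 0.24) and -0.67 (adjusted p = 0.2).

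The same Tim-3 split was then made among PD-1-low CD8 cells, with 92 high and 703 low cells in B16-Ova and 172 and 987 in the MC38-Ova pool. The Tim-3-high cells of this split also had more PD-1 tag UMIs, with medians of 18 and 17 against 14 and 14. Their median RNA counts were 7150 and 8062.5 against 6233 and 5969 UMIs, and the values in this paragraph are not matched on either. There, 109 of 9641 genes (1.13%) were higher and 62 (0.643%) lower. Prf1 had 1.60 ± 0.13 (adjusted p = 8.23e-06), Gzmb 1.16 ± 0.09, Havcr2 1.62 ± 0.15 (adjusted p = 2.69e-05) and Tcf7 -0.95 ± 0.14 (adjusted p = 0.00124). Each had the sign it had in PD-1-positive cells. Pdcd1 was higher with Tim-3 among PD-1-low cells, at 403 against 179 CPM in B16-Ova and 275 against 181 in the MC38-Ova pool (0.86 ± 0.13, adjusted p = 0.00176), where PD-1-positive cells showed 0.02. The test of that difference between the PD-1 groups gave -0.82 ± 0.17 with an adjusted p of 0.203.

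A few genes differed between the PD-1 groups in the interaction test over 8 sums. With all cells 16 of 10077 genes passed (0.159%), without cells holding other-lineage RNA 9 of 9858 (0.0913%), and with RNA-matched cells 2 of 8974 (0.0223%). Xcl1 was lower with Tim-3 in PD-1-positive cells but higher in PD-1-low cells, at 511 against 209 CPM in B16-Ova and 231 against 191 in the MC38-Ova pool (0.76 ± 0.17, adjusted p = 0.0273). The difference of the 2 log2 changes was -2.54 (adjusted p = 0.0156) without other-lineage cells, and -2.27 with RNA-matched cells (adjusted p = 0.354). A single PD-1-low, Tim-3-high cell of B16-Ova held 195 of its group's 393 Xcl1 UMIs. Without the highest cell of each sum the PD-1-low levels were 257 against 170 and 151 against 178 CPM, which no longer pointed the same way in both pools. Lag3 had -1.13 (adjusted p = 0.022; RNA-matched adjusted p = 0.0981): its change was larger among PD-1-low cells, 446 against 158 and 603 against 179 CPM, and was spread over 52 and 117 Tim-3-high cells.

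**Figure D5:**
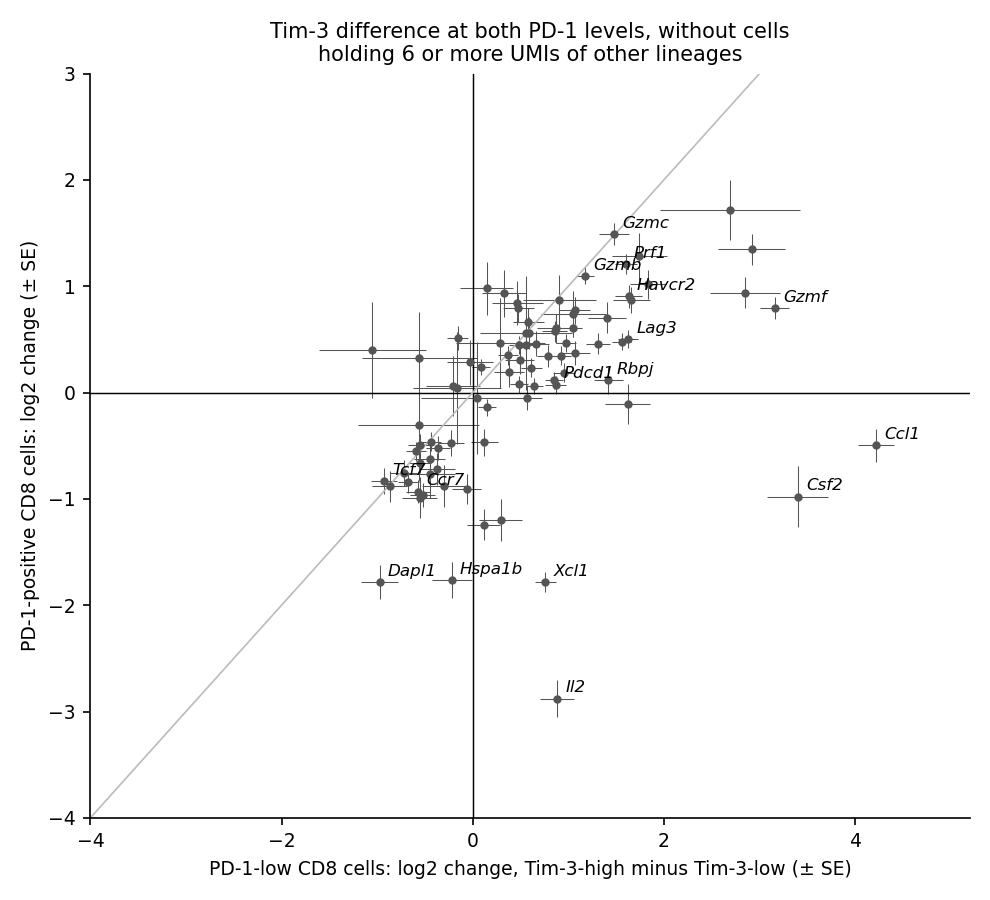
log2 change with Tim-3 of named genes in PD-1-low CD8 cells (x) against that in PD-1-positive CD8 cells (y), bars giving 1 standard error and the diagonal equal change, both without cells holding other-lineage RNA. Prf1, Gzmb and Havcr2 are above 0 and Tcf7 and Ccr7 below 0 on both axes, while Xcl1 and Il2 are above 0 on x and below 0 on y.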

How the data were processed

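The files hold UMI counts of RNA, 2 hashtags and 3 antibody tags (PD-1, Tim-3, anti-biotin) for 1 capture of tumour-infiltrating T cells. The deposited values are raw counts per gene or tag and barcode. Cell Ranger 3.1.0, R 3.6.1, Seurat 3.1.0 and the mm10 genome are named in the submitters' processing notes, and per the file headers the matrix came from software version 3.0.2. The annotation release, and any filter before deposit, are not given in the sources used here. Gene coordinates are those of GENCODE vM21 on GRCm38, matched by gene ID. Receptor (TCR) reads were not used here.

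The members and gene lists were chosen with earlier results of these data known. Raw counts were summed per pool and Tim-3 group. The 4 sums were tested with edgeR 4.0.16 in R 4.3.3 (TMM, filterByExpr, quasi-likelihood F-test, pool as a block, Benjamini-Hochberg over all genes, 0.05). With 1 residual degree of freedom the spread was mostly borrowed across genes (total degrees of freedom 12.9), and wholly so for RNA-matched cells and, in all and in PD-1-low cells, without other-lineage RNA, so those small p-values rest on the shared spread. Cells are not replicates, and per-pool intervals cover counting error only. RNA matching drew equal numbers of cells per decile of RNA UMIs with a fixed seed.

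Genes named are the 15 largest changes each way among genes that passed, had a mean of at least 20 CPM and had the same direction in both pools with and without RNA matching (41 higher and 48 lower qualified), up to 4 that passed from each list, 24 fixed genes, and genes whose pool intervals lay on opposite sides of 1. S1pr1, Ctsw, Serpinb9, Serpinb9b, Lef1, Lgals9, Hmgb1, Fcer1g, Nr4a1, Ldha, Gapdh, Ifitm1, Csf1 and the genes of cells of other lineages were named after their values were seen, where no part of that rule took them. Receptor segment genes were not named: 1 was higher and 6 were lower. Doublets were not removed in the main sums, and leaving out the 10% of cells with the highest Scrublet scores (scanpy 1.11.5) was an alternative. Of 13 marker lists, neutrophil and mast, stroma, colon carcinoma, erythroid, gamma-delta T, NK/NKT, Treg and B cell genes had no gene higher in Tim-3-high cells. No neutrophil and mast or erythroid gene had enough counts to be tested. Only 1 gene each was tested for stroma, colon carcinoma and gamma-delta T, so absence of these lineages was not shown. The cell sets without other-lineage RNA, without over 100 Tim-3 UMIs and without each gene's highest cell, and the test against PD-1-low cells, were added after seeing the data.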

Additional observations from a re-analysis of the deposited data

Results flagged for a closer look

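In 5 named genes the exact intervals of the pools lay on opposite sides of 1 with all cells, a difference that was not tested, since each tumour is 1 pool. The CPM ratio of Tim-3-high to Tim-3-low cells for Tox was 1.22 in the B16-Ova pool and 0.716 in the MC38-Ova pool. For Tnf, the inflammatory cytokine, it was 0.649 and 1.57, and for the chemokine gene Ccl4 it was 1.496 and 0.791. The Spp1 ratio was 2.35 and 0.331, and that of Gzma was 0.778 and 2.22. After RNA matching this held for Ccl4 and Spp1 of the 5. The matched intervals of Tox (0.609 to 1.01) and Tnf (0.962 to 1.53) in MC38-Ova and of Gzma in B16-Ova (0.779 to 1.23) spanned 1. The matched intervals lay on opposite sides also for Ifng, Ccl3 and Mki67, the last with ratios of 1.48 and 0.609. A few cells held much of the Ifng and Ccl3 counts of MC38-Ova, as given above. In Spp1, 1 cell held 68.8% of the UMIs of Tim-3-low cells in MC38-Ova.

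In 9 genes the change with Tim-3 differed between PD-1-positive and PD-1-low cells by the interaction test without cells holding other-lineage RNA (edgeR). The log2 change in PD-1-positive minus that in PD-1-low cells was -2.54 for Xcl1 (adjusted p = 0.0156) and -3.78 for Il2 (adjusted p = 4.8e-05). It was -1.31 for Rbpj, the transcription factor of Notch signalling, and -1.13 for Lag3 (adjusted p = 0.022 for both). Ptms had -0.77 (adjusted p = 0.0499) and Serpinb1a -1.73 (adjusted p = 0.022). The cytokine genes Il13, Csf2 and Ccl1 had -7.62 (adjusted p = 0.022), -4.39 (adjusted p = 0.0242) and -4.73 (adjusted p = 0.022).

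With RNA-matched cells 1 of the 9 passed, Ccl1 (-7.75, adjusted p = 2e-06), together with S100a6 (-0.67, adjusted p = 0.0281). The matched PD-1-positive, Tim-3-high sums held 19 Ccl1 UMIs in B16-Ova and 15 in MC38-Ova, against 239 and 96 before matching. The cytokine values came from few cells. Among PD-1-low, Tim-3-high cells of MC38-Ova, 1 cell held 25 of 26 Il13 UMIs, 1 held 216 of 301 Ccl1 UMIs, and 1 held 113 of 204 Il2 UMIs. All 13 Csf2 UMIs of the B16-Ova group lay in 1 cell. Rbpj was spread over 35 and 70 cells of those groups, at 96.2 against 38.6 CPM in B16-Ova and 99.3 against 34.6 in the MC38-Ova pool.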

How the results depend on the processing

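The counts of genes moved with the processing more than the direction of named genes did. Against 69 higher and 55 lower genes with all cells, DESeq2 called 15 and 9. No TMM factors gave 193 and 129, no low-count filter 208 and 113, a hashtag ratio of 10 gave 111 and 95, leaving out cells over 100 Tim-3 UMIs 139 and 103, and leaving out cells with other-lineage RNA 121 and 111. Against 66 and 49 with RNA matching, DESeq2 called 6 and 3, PD-1 matching 1 and 2, RNA with PD-1 19 and 11, RNA with PD-1 and L-Pha 29 and 12, cells thinned to 3000 UMIs 20 and 14, and each gene without its highest cell 37 and 32. Own-hashtag matching called 26 lower, and no cells over 100 Tim-3 UMIs 27 lower. The interaction count went from 16 to 9 without other-lineage RNA and to 2 with RNA matching. The spread was borrowed wholly across genes with no TMM factors, no low-count filter, a hashtag ratio of 10 and no other-lineage RNA, and only partly with PD-1 matching. The cause of these shifts was not tested.

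Some named genes changed sign. With thresholds of 35 and 15 UMIs, Gzmd had -0.29, Il2 1.04 and Dct -0.80. Without other-lineage cells H2-Eb1 had -0.30 and Ptgds -0.051. Under RNA, PD-1 and L-Pha matching Gzma had -0.25, and the matched change of Gzmf was -0.015 in B16-Ova alone and 1.48 in MC38-Ova alone, that of Gzma -0.033 and 1.24. The low sums (1741467 and 2010642 UMIs) limit what can be seen in genes of few UMIs. Leaving out a pool leaves no residual degrees of freedom, so counts of calls could not be had that way. The pool is a block in these fits, so Tim-3-high and Tim-3-low sums are compared within a pool.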

Other observations

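Further genes with the same direction in both pools with and without RNA matching were Sv2c, which encodes a synaptic vesicle protein, at 17.6 against 8.61 CPM in Tim-3-high and Tim-3-low cells of B16-Ova, with 46.4 against 18.4 CPM for MC38-Ova (log2 change 1.23 ± 0.21, adjusted p = 0.0108; RNA-matched 1.62 ± 0.24, adjusted p = 1.15e-08). Its UMIs lay in 65 and 114 Tim-3-high cells, and no cell held over 20.0% of a group's UMIs. The transcript AC163354.1 (chromosome 12, 25303940 to 25471979, GRCm38) stood at 90.9 against 51.1 and 80.7 against 35.8 CPM (0.98 ± 0.13, adjusted p = 0.00233). Anxa4, an annexin gene, had 0.90 ± 0.19 (adjusted p = 0.0343). Serpine2, a secreted protease inhibitor, had 0.84 ± 0.11 (adjusted p = 0.00179), and 0.44 ± 0.14 after RNA matching (adjusted p = 0.118). Tespa1, a gene of T cell receptor signalling, had -1.05 ± 0.23 (adjusted p = 0.0403).

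The interferon-induced membrane genes Ifitm1 and Ifitm3 are close copies. Ifitm3 had a log2 change of 1.31 ± 0.12 (adjusted p = 0.000172), with 40.1% of its UMIs in cells holding other-lineage RNA and a change of 0.56 without them. Ifitm1 stood at 587 against 306 CPM in MC38-Ova, and at 8.61 CPM in both groups of B16-Ova. There 1 Tim-3-high cell held 30 of 45 Ifitm1 UMIs, and without the highest cell of each sum the levels were 2.87 against 6.32 CPM. Klrg1, a receptor of short-lived effector cells, stood at 29.9 against 13.8 and 26.8 against 15.9 CPM, at 0.91 ± 0.20 (adjusted p = 0.0517), and passed after RNA matching at 1.27 ± 0.25 (adjusted p = 8.47e-05). Ccl1 was at -0.57 ± 0.21 (adjusted p = 0.318) and passed after RNA matching at -2.39 ± 0.26 (adjusted p = 4.5e-17), where 11 and 4 Tim-3-low cells of the pools carried it before matching.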
